A study of Arabidopsis thaliana with 30 samples.

Results

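The wide open regions of Arabidopsis thaliana shoots were broad stretches of accessible chromatin in wild-type Col-0 shoot. They were chosen by width, as the ATAC-seq peaks of Col-0 shoot replicate 1 that spanned at least 800 bp and overlapped a replicate 2 peak by at least 1 bp. Stretches of chromosome 2 (3.2 to 3.6 Mb) and of chromosome 3 (14.1 to 14.3 Mb) were left out. This gave 1210 regions, which were 6.34% of the 19079 peaks that both shoot libraries shared outside those stretches and held 15.3% of all peak sequence of replicate 1. The 30 peak lists of the series held 734458 peaks.

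ATAC-seq marks accessible DNA by inserting adapters with the Tn5 transposase, and a peak is a stretch where sequenced fragments pile up above the local background. Plants were wild-type Col-0 roots at 2 weeks, Col-0 stems at 4 weeks, shoots of 12 mutant genotypes at 2 weeks and Col-0 shoots at 2 weeks, with 2 libraries per group. ros1-4 lacked the DNA demethylase ROS1, rdd-2 lacked ROS1 with its relatives DML2 and DML3, and drdd lacked these together with DME. met1-9 lacked the CG maintenance methyltransferase MET1, nrpd1-3 lacked RNA polymerase IV, gcn5 a histone acetyltransferase, hda6 a histone deacetylase and sdg2-4 a histone H3K4 methyltransferase, and the last 4 were also combined with ros1-4. Alleles of gcn5 and hda6 are not named in the labels.

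In plants, most open chromatin lies just upstream of genes, where transcription factors displace nucleosomes. A peak called over a long stretch can be 1 broad depleted region or several neighbouring sites whose signals run together. ROS1 removes methylcytosine, often at the edges of transposons near genes, and loss of MET1 removes most CG methylation.

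Libraries differed in ways that bear on widths. The narrowest peak in a list ran from 99 bp in met1-9 replicate 1 to 195 bp in hda6 replicate 2. The background level of a list was taken from the low end of its peaks' local background pileups, read back from folds and p-values. This level ran from 5.17 in ros1-4 replicate 2 to 32.5 in gcn5 replicate 2. Of 5 shoot marker genes, each shoot library had a peak at 5, each stem library at 4 and each root library at 2. Of 4 root marker genes, each root library had a peak at 4, each stem library at 1 and shoot libraries at 0 to 2. Nothing in the labels says that the 2 libraries of a group came from separate plants, so p-values below measure the spread between these libraries.

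Widths in replicate 1 had a median of 942 bp and reached 2305 bp at JAZ6; 459 regions spanned 1000 bp or more and 47 spanned 1500 bp or more. Just inside the limit, at 800 bp, lay the regions of AT1G15010, ABA4 and AT1G72820, and just outside it, at 799 bp, lay those of ESL1, AT1G67310 and AT2G38250. Replicate 2, whose widths did not enter the choice, gave a median of 943 bp and a range of 265 to 2393 bp. In replicate 2, 983 of the 1210 regions (81.2%) again reached 800 bp. Of the 227 narrower ones, 101 were covered there by more than 1 peak. Across regions, Spearman's rho between the replicates was 0.596 for width and 0.902 for fold, the authors' ratio of summit pileup to local background. The choice cut replicate 1 widths at 800 bp and did not cut folds. The range of widths was thus limited by the choice, and these 2 rho values cannot be compared. Across the same regions, replicate 2 width and replicate 2 fold had a rho of −0.0048, against 0.409 across the other shared peaks. Both sets were formed by replicate 1 width, and the part of that in these values was not tested.

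Wide regions lay mostly between genes and often reached the end of a gene. The summit was outside any protein-coding gene in 949 regions (78.4%), against 67.8% of the other shared peaks. In the median wide region, 84.4% of the sequence was outside genes, against 73.5% in the others. A region held exactly 1 gene end in 48.3% of cases, against 41.5% of the others, and 2 or more gene ends in 286 cases (23.6%), against 13.8%. Only 42 regions (3.47%) lay wholly within a gene, against 10.5% of the others. A longer stretch meets more gene ends by its length alone, which these shares do not correct for. The gap between genes that held the summit had a median length of 2129 bp, against 2140 bp for the others. The summit fell in the central part, when a region was cut into 3 equal parts, in 29.3% of wide regions, against 69.96% of the others. The 5 chromosomes held 321, 174, 233, 207 and 275 wide regions, and neighbouring shared peaks were both wide in 62 places.

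Which genes the wide regions accompany was described with 14 lists and 17 families. A gene was counted with a region that overlapped it or lay within 500 bp of either end. Of 16452 protein-coding genes with a shared peak so placed, 1542 (9.37%) had a wide region. Among jasmonate genes, 5 of 10 had one: JAZ1, JAZ2, JAZ5, JAZ6 and JAZ10, which encode repressors that are degraded when the hormone is perceived. Among light signalling genes, 7 of 19 had one: the photoreceptor genes PHYA and PHYB, the growth-promoting bHLH factors PIF4 and PIF5, the COP1 partner SPA1, the B-box factor BBX22 and RUP1, a repressor of the UV-B receptor. Cytokinin signalling gave 3 of 11, with the receptor gene AHK3 and the response regulators ARR4 and ARR5. The ARR5 region is shared with EDS1, the gene nearest its summit.

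Other lists held few. Photosynthesis gave 3 of 19 genes (LHCB2.2, LHCB4.1 and RBCS1A), housekeeping 2 of 8 (ACT7 and UBQ10), stress transcription factors 2 of 18 (ERF104 and WRKY18) and the circadian clock 1 of 17 (PRR9). One gene each came from gibberellin and brassinosteroid (BZR1, 1 of 9), from cold, drought and abscisic acid (PYL4, 1 of 16) and from the list of DNA methylation genes and mutated genes (DME, 1 of 8). The DME region is shared with SIR, which encodes sulfite reductase. None of 13 auxin genes, 19 meristem and leaf development genes, 8 flowering genes or 3 root marker genes had a wide region. In Col-0 shoot replicate 2, some list regions were narrower than 800 bp. These were LHCB2.2 (482 bp), RBCS1A (489 bp), ARR4 (470 bp), DME (743 bp) and SPA1 (764 bp).

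Among families, JAZ gave 5 of 11, GATA factors 5 of 17, B-box proteins 7 of 28 and response regulators 3 of 15, which are the highest 4 shares of the 17. NAC factors gave 6 of 68, homeobox factors 4 of 55 and MADS factors 2 of 33. Auxin response factors gave 0 of 14, and the Aux/IAA family gave 1 of 20 (IAA11, which was not on the auxin list). Of 82 microRNA genes with a shared peak, 4 had a wide region: MIR173, MIR398a, MIR779 and MIR827.

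**Figure D1:**
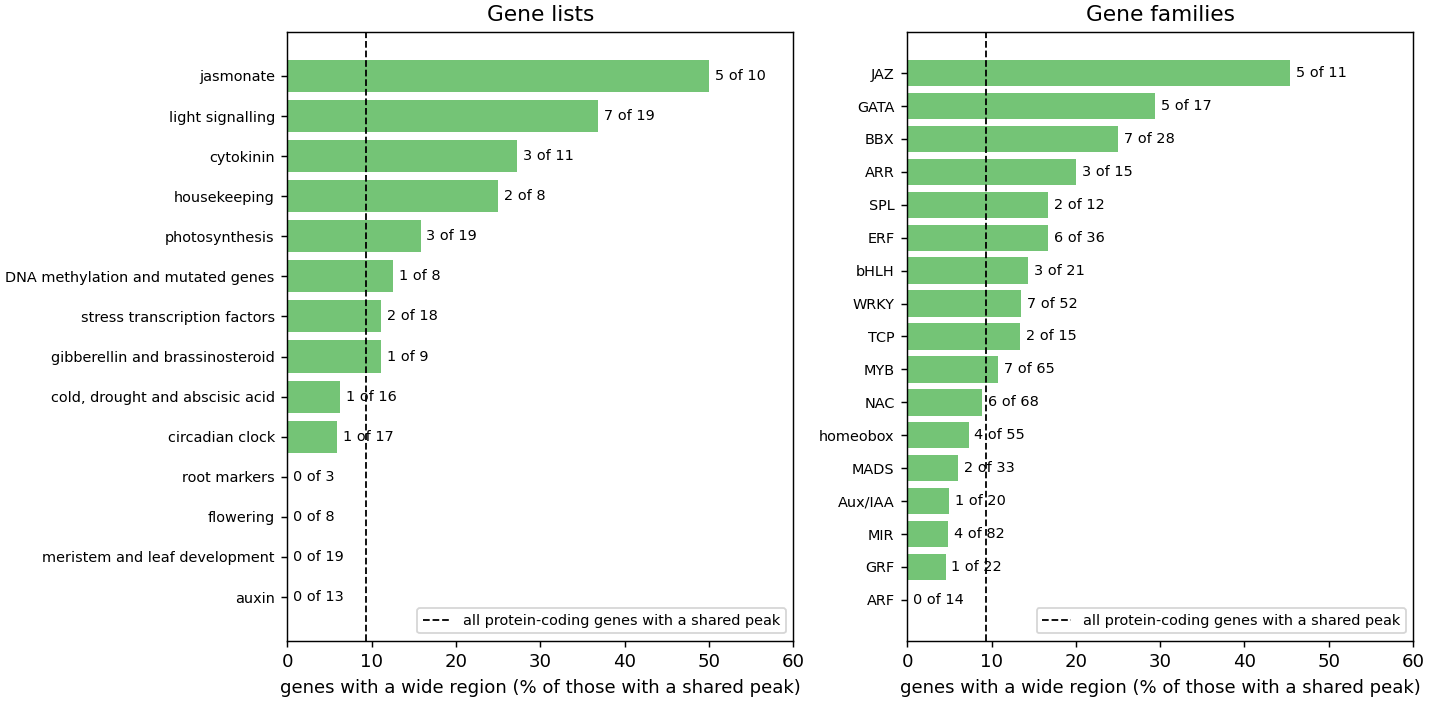
Percent of genes with a wide region among genes with a shared Col-0 shoot peak, for 14 gene lists (left) and 17 gene families (right); labels give the counts and the dashed line is the 9.37% of all protein-coding genes. Of the 14 lists, 8 stand above the line, from jasmonate (5 of 10), light signalling (7 of 19), cytokinin (3 of 11) and housekeeping (2 of 8) down to stress transcription factors (2 of 18), and auxin genes (0 of 13) are at 0.

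Presence of these regions hardly varied. A peak was found in all 28 libraries outside Col-0 shoot at 1138 wide regions (94.0%), against 58.5% of the other shared peaks. An overlap of 1 bp counted as presence, so a longer region meets a peak more easily. Wide regions also had the higher median fold in Col-0 shoot replicate 1, 6.51 against 4.87. The shares are not corrected for length or fold. Width varied more. A peak of at least 800 bp was found in all 28 libraries at 140 regions (11.6%), in at least 26 at 376 regions and in at least 14 at 996 regions. In 28 regions no more than 3 libraries had such a peak, and at 4 regions none had. The median region was wide in 23 of the 28 libraries.

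**Figure D2:**
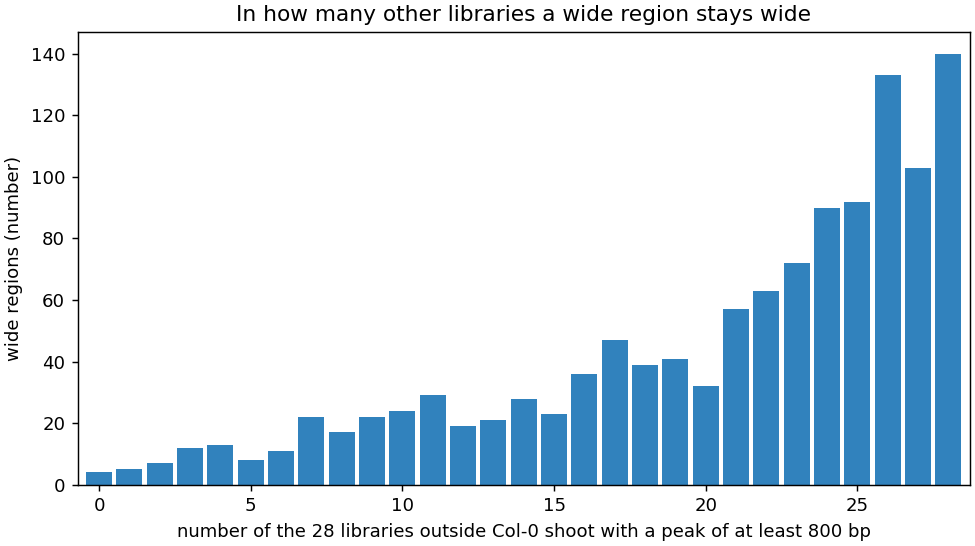
Number of wide regions (vertical axis) by the number of the 28 libraries outside Col-0 shoot that had a peak of at least 800 bp there (horizontal axis). The count at the right end is the 140 regions wide in all 28 libraries, and the count at 0 is 4.

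The root libraries had a peak of at least 800 bp at 63.8% and 65.5% of the 1210 regions and the stem libraries at 62.98% and 78.6%, against 100% and 81.2% for the Col-0 shoot libraries, of which replicate 1 made the choice. Among shoots without ROS1, ros1-4 had 73.4% and 38.0%. For rdd-2 the shares were 79.9% and 88.9%, and for drdd they were 86.0% and 85.5%. It was 45.4% and 71.3% in met1-9. The 2 libraries of ros1-4 and of met1-9 differed by more than those of most other groups, so these groups have no single share.

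The mutants nrpd1-3, gcn5, hda6 and sdg2-4 were each sampled beside a ros1-4 double. The share was 72.1% and 72.4% in nrpd1-3 ros1-4, against 73.1% and 61.98% in nrpd1-3. It was 86.5% and 86.0% in gcn5 ros1-4, against 93.6% and 98.3% in gcn5. It was 77.02% and 89.1% in hda6 ros1-4, against 67.2% and 81.7% in hda6. It was 67.7% and 64.3% in sdg2-4 ros1-4, against 71.5% and 51.98% in sdg2-4. The gcn5 libraries were above their doubles without overlap, while the values of the other 3 pairs overlapped. The other shared peaks moved with the libraries too, with 0.722% of them wide in ros1-4 replicate 2 and 25.7% in gcn5 replicate 2, the libraries with the lowest and the highest background level. The part of that level in the shares was not tested. The pooled SD between the 2 libraries of a group was 10.6 percentage points.

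**Figure D3:**
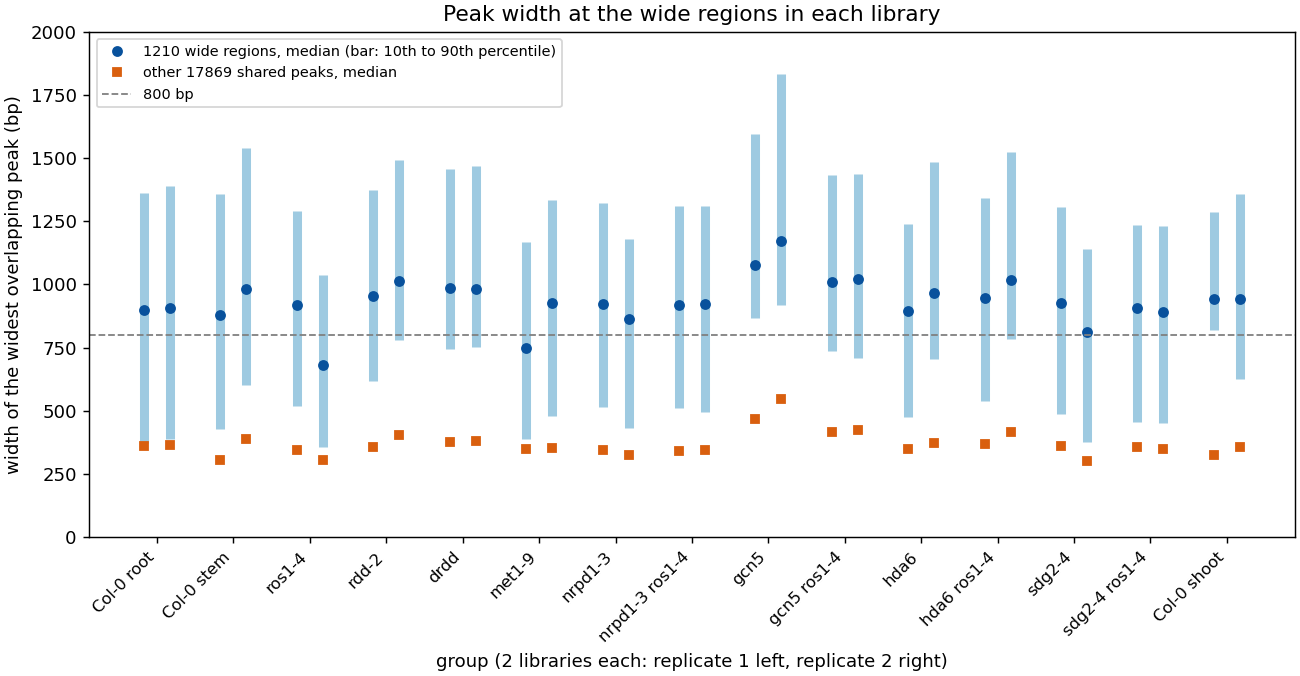
Width of the widest overlapping peak in bp for each of 30 libraries: blue points are medians over the 1210 wide regions with bars for the 10th to 90th percentile, and orange squares are medians over the other 17869 shared peaks. Wide regions have medians of 681 bp (ros1-4 replicate 2) to 1174 bp (gcn5 replicate 2), above the other peaks in every library.

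Division into several peaks was most frequent in the 2 libraries where the fewest wide regions reached 800 bp. More than 1 peak covered 657 wide regions (54.3%) in met1-9 replicate 1 and 597 (49.3%) in ros1-4 replicate 2, and 466 regions were divided in both. Of the other shared peaks, 4.42% and 2.26% were divided in these lists, and the shares are not corrected for region length. The narrowest peaks of these lists, 99 and 121 bp, were the shortest of the 30 lists, and the part of that in the division was not tested. In gcn5 replicate 2 only 2 regions were divided. Narrower widths also occurred with little division: in Col-0 stem replicate 1, 62.98% of wide regions reached 800 bp and 76 (6.28%) were divided. Neighbouring summits within divided regions were a median of 556 bp apart in met1-9 replicate 1 and 579 bp in ros1-4 replicate 2. Of all wide regions, 326 were divided in none of the 28 libraries, 783 in 1 to 13 and 101 in 14 or more.

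Folds are values of each list and cannot be compared between lists, so they were ranked within a list. The median wide region lay between percentile 72.5 and 77.7 of its list's folds in every library. Its median fold was 5.66 and 5.73 in the root libraries, 5.54 and 5.67 in the stem libraries and 6.51 and 6.69 in the Col-0 shoot libraries. Among mutants the median ran from 6.27 in rdd-2 replicate 2 to 8.65 in sdg2-4 ros1-4 replicate 1.

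AT3G05327, AT1G50450, CESA5 and SPL1 were named for their large median width over the 28 libraries, so that they were wide there was fixed by the choice. At AT3G05327 (chromosome 3, 1515522 to 1517312 of TAIR10) the widest peak measured 1720 and 1688 bp in root, 1632 and 1732 bp in stem, 1785 to 1895 bp in the 24 mutant libraries and 1791 and 1873 bp in Col-0 shoot. The root and stem values lay below all shoot values there. At AT1G50450 (chromosome 1, 18690403 to 18692585) it measured 1163 and 2231 bp in root, 2175 and 2178 bp in stem, and 2183 and 2224 bp in Col-0 shoot. In met1-9 the same region had 872 and 849 bp, the lowest values of the 30 libraries. At CESA5, a cellulose synthase gene (chromosome 5, 3071182 to 3073059), the peak measured 1007 and 1990 bp in root, 1994 and 2144 bp in stem, and 1878 and 1757 bp in Col-0 shoot. At SPL1, a squamosa promoter-binding factor gene (chromosome 2, 19335961 to 19336776), replicate 1 of Col-0 shoot had 816 bp but replicate 2 had 1833 bp. SPL1 had 1814 to 1840 bp in root and stem and 865 and 860 bp in ros1-4.

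Fold and width picked different regions. The highest folds of replicate 2 among wide regions were 15.9 at SIR (chromosome 5, 1318469 to 1319371), 15.8 at BIM2, a bHLH factor of brassinosteroid signalling (chromosome 1, 25940975 to 25941775), and 15.0 at EX1, a chloroplast singlet oxygen signalling gene (chromosome 4, 16154691 to 16155500). Replicate 1 gave 15.2, 18.3 and 11.1 there. The widths of these regions in replicate 2 were 743, 814 and 790 bp, below the median of 943 bp. BIM2 was wide in 14 of the 28 libraries, EX1 in 15 and SIR in 21.

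JAZ regions differed in how far their width varied. JAZ5 (chromosome 1, 5957109 to 5958660) measured 1500 and 1487 bp in root, 1572 and 1634 bp in stem, and 1552 and 1510 bp in Col-0 shoot. Its values in mutants ran from 997 bp in ros1-4 replicate 2 to 1671 bp in met1-9 replicate 1. JAZ2, JAZ5 and JAZ10 were wide in all 28 libraries. JAZ6 (chromosome 1, 27276246 to 27278550) had 1398 and 1440 bp in root, 956 and 2649 bp in stem, 1235 and 572 bp in sdg2-4 and 2305 and 2365 bp in Col-0 shoot, so its width varied between and within groups. JAZ1 (chromosome 1, 6620039 to 6621556) had 2831 and 2783 bp in root, 2215 and 2550 bp in stem, and 1518 and 1543 bp in Col-0 shoot. JAZ1 also separated mutants: 2230 and 2226 bp in rdd-2 and 2641 and 2667 bp in drdd stood above 597 and 557 bp in ros1-4.

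Among light signalling genes, PHYB took 2 kinds of width. PHYB (chromosome 2, 8138139 to 8139884) measured 1010 and 979 bp in root, 1714 and 1714 bp in stem, and 1746 and 1760 bp in Col-0 shoot. Among mutants PHYB took values of 977 to 1085 bp or of 1702 to 1777 bp, and 5 of the 12 mutants had one library of each kind. BBX22 (chromosome 1, 29566298 to 29567113) ran from 781 bp in sdg2-4 replicate 2 to 1078 bp in gcn5 replicate 2 over all 30 libraries. UBQ10, a polyubiquitin gene of the housekeeping list (chromosome 4, 2717319 to 2718261), had 846 to 1270 bp and was wide in every library.

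**Figure D4:**
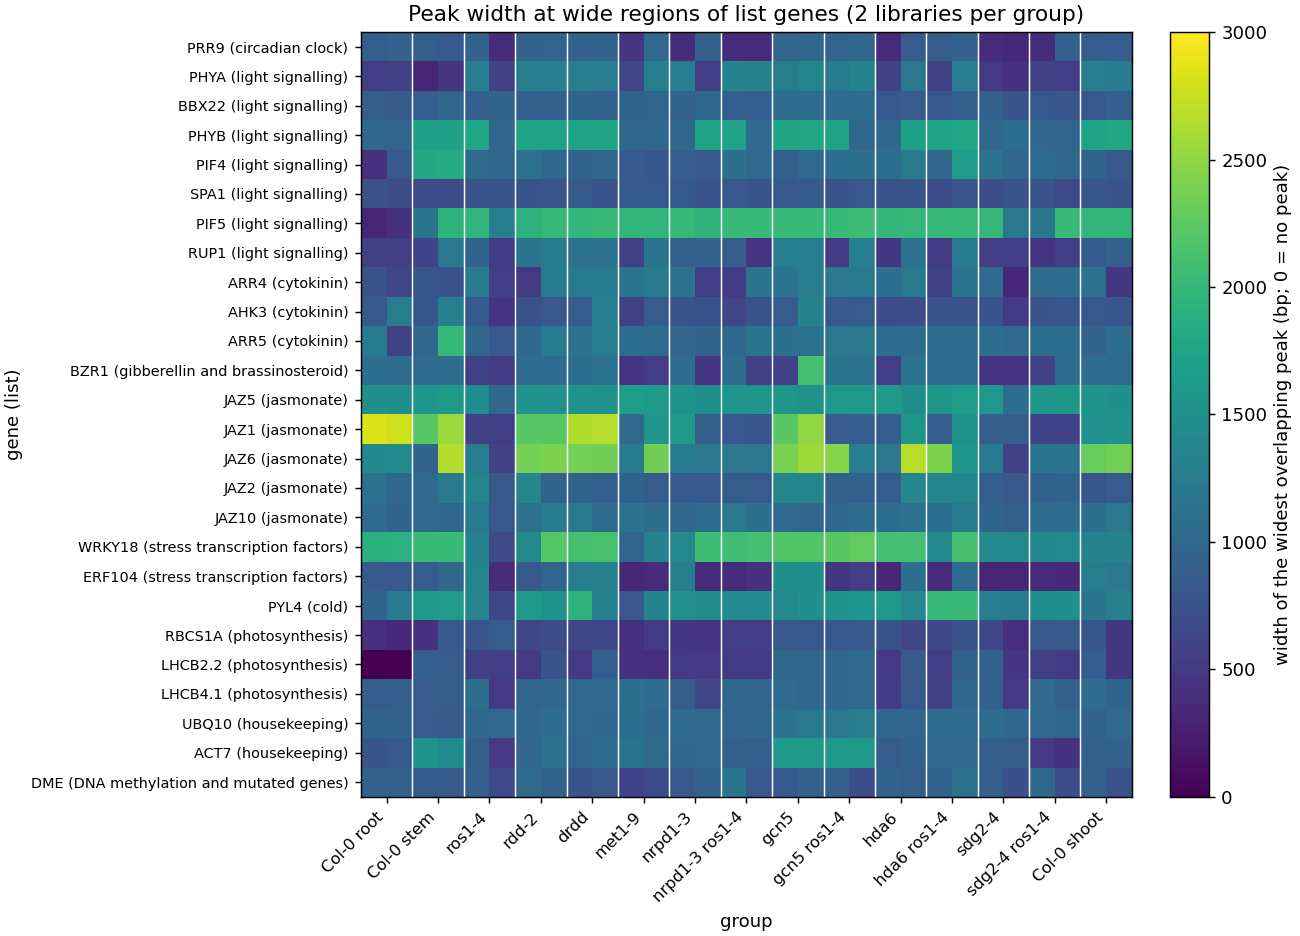
Width in bp of the widest peak at 26 wide regions of list genes (rows, with the list in parentheses) in 30 libraries (columns, replicate 1 left of replicate 2). UBQ10 keeps a similar colour across columns, LHCB2.2 is at 0 in both root libraries, and JAZ1 is widest in root.

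Root was set against stem to test organs outside the libraries that chose the regions. The width of the widest overlapping peak was compared as log2(width + 100 bp), with 0 bp where there was no peak, in 1 limma fit of 28 libraries over 19078 shared peaks. Each library was centred on its mean, so a log2 difference is relative to the library's peaks as a whole. Of the 1210 wide regions, 191 were narrower in root, where 13.5% of all tested peaks were narrower, and 54 were wider, where 12.9% were wider (limma, Benjamini-Hochberg adjusted p below 0.05). The median log2 difference was −0.13 over wide regions and −0.05 over all tested peaks. With each library centred on its median instead of its mean, the calls were 135 narrower and 85 wider, and with no centring 140 and 73. Root and stem plants also differed in age, and the effects of organ and of age cannot be told apart.

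The 3 regions with the lowest p among those narrower in root had no root peak at all. CHUP1, which positions chloroplasts along actin (chromosome 3, 9352762 to 9353871, wholly within the gene), had no peak in either root library, against 783 and 1114 bp in stem (log2 difference −3.47 ± 0.10 SE, limma adjusted p = 1.37e-12). Col-0 shoot had 1110 and 1140 bp there and the 24 mutant libraries 1125 to 1263 bp, so the root libraries alone lacked it. DFL2, a GH3 family gene (chromosome 4, 1499853 to 1500787), had no peak in root, against 912 and 1007 bp in stem (−3.51 ± 0.11, limma adjusted p = 1.37e-12). AT1G10586 (chromosome 1, 3495587 to 3496475) had no peak in root, against 693 and 765 bp in stem (−3.15 ± 0.13, limma adjusted p = 3.13e-11). The DFL2 and AT1G10586 regions had peaks in all 28 libraries outside root.

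Called list genes were narrower in root too. LHCB2.2, a light-harvesting protein gene (chromosome 2, 1800351 to 1801223), had no peak in root, against 894 and 878 bp in stem (−3.40 ± 0.25, limma adjusted p = 1.92e-08). Col-0 shoot had 873 and 482 bp at LHCB2.2, and the region was wide in 10 of the 28 libraries. LHCB2.2 has close relatives in the genome, and how reads of near-identical copies were placed is not given in the sources used here. PIF4 (chromosome 2, 17885488 to 17886459) had 407 and 853 bp in root, against 1816 and 1840 bp in stem (−1.57 ± 0.22, limma adjusted p = 4.64e-05). PIF5 (chromosome 3, 21830372 to 21832346) had 306 and 399 bp in root, against 1165 and 1943 bp in stem (−1.94 ± 0.23, limma adjusted p = 4.97e-06). For both PIF genes the root and stem values did not overlap, and Col-0 shoot had 972 and 839 bp at PIF4 and 1975 and 1984 bp at PIF5. ACT7, RBCS1A and the region shared by ARR5 and EDS1 were the other list regions called narrower in root, and no list region was called wider. Of the 26 list regions, 20 did not pass the threshold, among them PHYB with a difference of −0.83 ± 0.33 (limma adjusted p = 0.0726).

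The 3 regions with the lowest p among the 54 wider in root had no stem peak. FAD3, an omega-3 fatty acid desaturase gene (chromosome 2, 12782938 to 12783778, within the gene), had 478 and 469 bp in root and no peak in stem (2.42 ± 0.15, limma adjusted p = 1.67e-09). Col-0 shoot had 841 and 866 bp at FAD3, so root was intermediate. AT1G57980 (chromosome 1, 21440673 to 21441557) had 571 and 524 bp in root and no peak in stem (2.59 ± 0.19, limma adjusted p = 1.88e-08). PTF1, a TCP family transcription factor gene (chromosome 3, 388659 to 389541), had 239 and 173 bp in root and no peak in stem (1.503 ± 0.13, limma adjusted p = 1.68e-07). The folds of PTF1 in root were 1.99 and 2.12, and with peaks of −log10 q of at least 10 only the difference became −0.16 (limma adjusted p = 0.904).

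Few wide regions were lost altogether. Both root libraries lacked a peak at 21 regions (1.74%, against 10.6% of the other shared peaks) and both stem libraries at 13 (1.07%, against 12.9%). Such counts, here and in mutants, often moved in the alternatives, as given at the end. The shares are not corrected for region length. Besides LHCB2.2 and CHUP1, the root losses with the highest Col-0 shoot fold lay at AT1G58602 (chromosome 1, 21745532 to 21746448), AT4G23760 (chromosome 4, 12379909 to 12380842) and HR4 (chromosome 3, 18731140 to 18732074), a homolog of the RPW8 resistance gene. Stem lacked, among others, the region at BCA3, a carbonic anhydrase gene (chromosome 1, 8393888 to 8394723), where root had 207 and 268 bp and Col-0 shoot had 836 and 265 bp. AIR3 (chromosome 2, 1405845 to 1406668) was absent in stem, had 242 and 243 bp in root and 824 and 592 bp in Col-0 shoot, and was wide in 0 of the 28 libraries.

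Among mutants, both libraries lacked a peak at 4 regions in ros1-4, 3 in drdd, 2 in sdg2-4 ros1-4, 1 each in rdd-2, met1-9, hda6 and sdg2-4, and 0 in the others. These were 0.331% of wide regions in ros1-4, against 2.89% of the other shared peaks, 0.248% in drdd, against 2.76%, and 0.165% in sdg2-4 ros1-4, against 1.74%. Such a region in met1-9 lay more than 2000 bp from any gene (chromosome 1, 16705007 to 16706104) and had a peak in each of the other 28 libraries. A region lost in drdd was that of CSLB04, a cellulose synthase-like gene (chromosome 2, 13813676 to 13814603), with no peak in drdd, against 928 and 941 bp in Col-0 shoot. CSLB04 also lacked a peak in replicate 1 of root and of stem.

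Loss of ROS1 was tested over the 4 backgrounds in which it was combined with another mutation, 8 double mutant libraries against 8 single mutant libraries. Of the 1210 wide regions, 14 were narrower in the doubles, where 1.85% of all tested peaks were narrower, and 4 were wider, where 0.786% were wider (limma, Benjamini-Hochberg adjusted p below 0.05). The shares of wide regions were 1.16% and 0.331%. The calls were 12 narrower and 15 wider with median centring, 14 and 8 with no centring, and 10 and 13 with quantile normalization. Without hda6 replicate 1 there were 46 calls, of which 39 were narrower, and without sdg2-4 replicate 1 there were 31, of which 17 were narrower. The size of the list therefore rests on single libraries.

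Some regions separated shoots by ROS1 in every library. STL2P, a relative of the vesicle transport factor SEC12 (chromosome 2, 214414 to 215425), had 603 and 603 bp in nrpd1-3 ros1-4, against 834 and 897 bp in nrpd1-3. It had 698 and 735 bp in gcn5 ros1-4, against 1100 and 1076 bp in gcn5. It had 754 and 708 bp in hda6 ros1-4, against 1017 and 925 bp in hda6, and 582 and 589 bp in sdg2-4 ros1-4, against 1076 and 1062 bp in sdg2-4. The doubles were narrower than the singles in all 4 pairs without overlap (−0.57 ± 0.06, limma adjusted p = 3.35e-05). The demethylase mutants gave 623 and 599 bp (ros1-4), 659 and 602 bp (rdd-2) and 700 and 755 bp (drdd), against 1012 and 1059 bp in Col-0 shoot. The ros1-4 peaks ended 590 bp from the start of the Col-0 shoot replicate 1 peak, against 1012 and 1062 bp for the Col-0 shoot peaks, and the summits lay at 201 and 182 bp, against 174 and 201 bp, so the difference lay at the far end.

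Over the 14 libraries of shoots lacking ROS1 and the 10 of mutant shoots carrying it, widths did not overlap at 10 of the 19079 shared peaks, all narrower without ROS1 (0.0524%), and 0 were wider (0%). Of these 10, 2 were wide regions: STL2P, with 582 to 755 bp without ROS1 against 834 to 1100 bp, and AT5G06040 (chromosome 5, 1815982 to 1816847), with 623 to 784 bp without ROS1 against 814 to 951 bp. The separation was looked for after the values were seen, and AT5G06040 was named for it. In Col-0 shoot AT5G06040 had 866 and 838 bp. The double minus single difference of AT5G06040 was −0.29 ± 0.05 (limma adjusted p = 0.00329).

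At DEG15, a peroxisomal processing protease gene (chromosome 1, 9924396 to 9925282), the ROS1 difference depended on the background. Its widest peak had 230 and 235 bp in nrpd1-3 ros1-4, against 936 and 946 bp in nrpd1-3, and 334 and 294 bp in gcn5 ros1-4, against 946 and 933 bp in gcn5. It had 234 and 235 bp in sdg2-4 ros1-4, against 906 and 925 bp in sdg2-4, but 950 and 950 bp in hda6 ros1-4, against 953 and 894 bp in hda6. So 3 pairs differed and the hda6 pair overlapped. The mean difference was −1.17 ± 0.06 (limma adjusted p = 1.505e-09), and the test of a difference between backgrounds gave a limma adjusted p of 3.83e-05. ros1-4 had 270 and 234 bp, rdd-2 234 and 266 bp, drdd 240 and 244 bp and met1-9 972 and 960 bp. Col-0 shoot itself was divided in replicate 2, with peaks of 222 and 324 bp, against a single peak of 887 bp in replicate 1.

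The narrow DEG15 peaks of ros1-4, rdd-2, drdd, gcn5 ros1-4 and sdg2-4 ros1-4 covered only the low-coordinate end of the region. In ros1-4 the summits lay 124 and 114 bp from the start of the region, while the summits of met1-9, nrpd1-3 and hda6 lay 762 to 764 bp from it. nrpd1-3 ros1-4 was divided, with peaks of 230 and 226 bp at the low-coordinate end and a second peak, of 224 and 235 bp, at the other end. The highest fold in the region was 19.7 and 15.9 in met1-9, 12.9 and 11.6 in nrpd1-3, 14.2 and 11.5 in hda6 and 7.24 and 6.23 in Col-0 shoot, values of different lists that were not compared.

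AT1G44130 (chromosome 1, 16789368 to 16790181) also differed between backgrounds (limma adjusted p = 0.000215). It had no peak and 150 bp in hda6 ros1-4, against 611 and 901 bp in hda6, and no peak in sdg2-4 ros1-4, against 627 and 572 bp in sdg2-4. The nrpd1-3 double had 735 and 767 bp, against 1212 and 1191 bp in nrpd1-3, and the gcn5 double 620 and 700 bp, against 752 and 800 bp in gcn5, which after centring was a log2 difference of 0.04. It was absent in both ros1-4 libraries, yet rdd-2 had 782 and 1076 bp and drdd 742 and 793 bp, so not every genotype lacking ROS1 lacked this peak.

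The 4 regions wider in the doubles included AT1G57980, AT1G15670 and HSF4, a heat shock factor gene. AT1G15670 (chromosome 1, 5387854 to 5388719) had 895 and 876 bp in hda6 ros1-4, against 204 and 252 bp in hda6, and 693 and 868 bp in sdg2-4 ros1-4, against 208 and 249 bp in sdg2-4. In the gcn5 and nrpd1-3 pairs its values lay between 734 and 1093 bp. HSF4 (chromosome 4, 17441536 to 17442435) had 1027 and 1056 bp in nrpd1-3 ros1-4, against 287 and 298 bp in nrpd1-3 (mean difference over 4 backgrounds 0.58 ± 0.13, limma adjusted p = 0.0246). The HSF4 call was lost without gcn5 replicate 2, hda6 ros1-4 replicate 1, nrpd1-3 replicate 1, sdg2-4 replicate 2 or either library of gcn5 ros1-4, nrpd1-3 ros1-4 or sdg2-4 ros1-4, with limma adjusted p of 0.0525 to 0.0734. JAZ1 was the list region called in this test, narrower in the doubles (−0.64 ± 0.13, limma adjusted p = 0.0123).

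**Figure D5:**
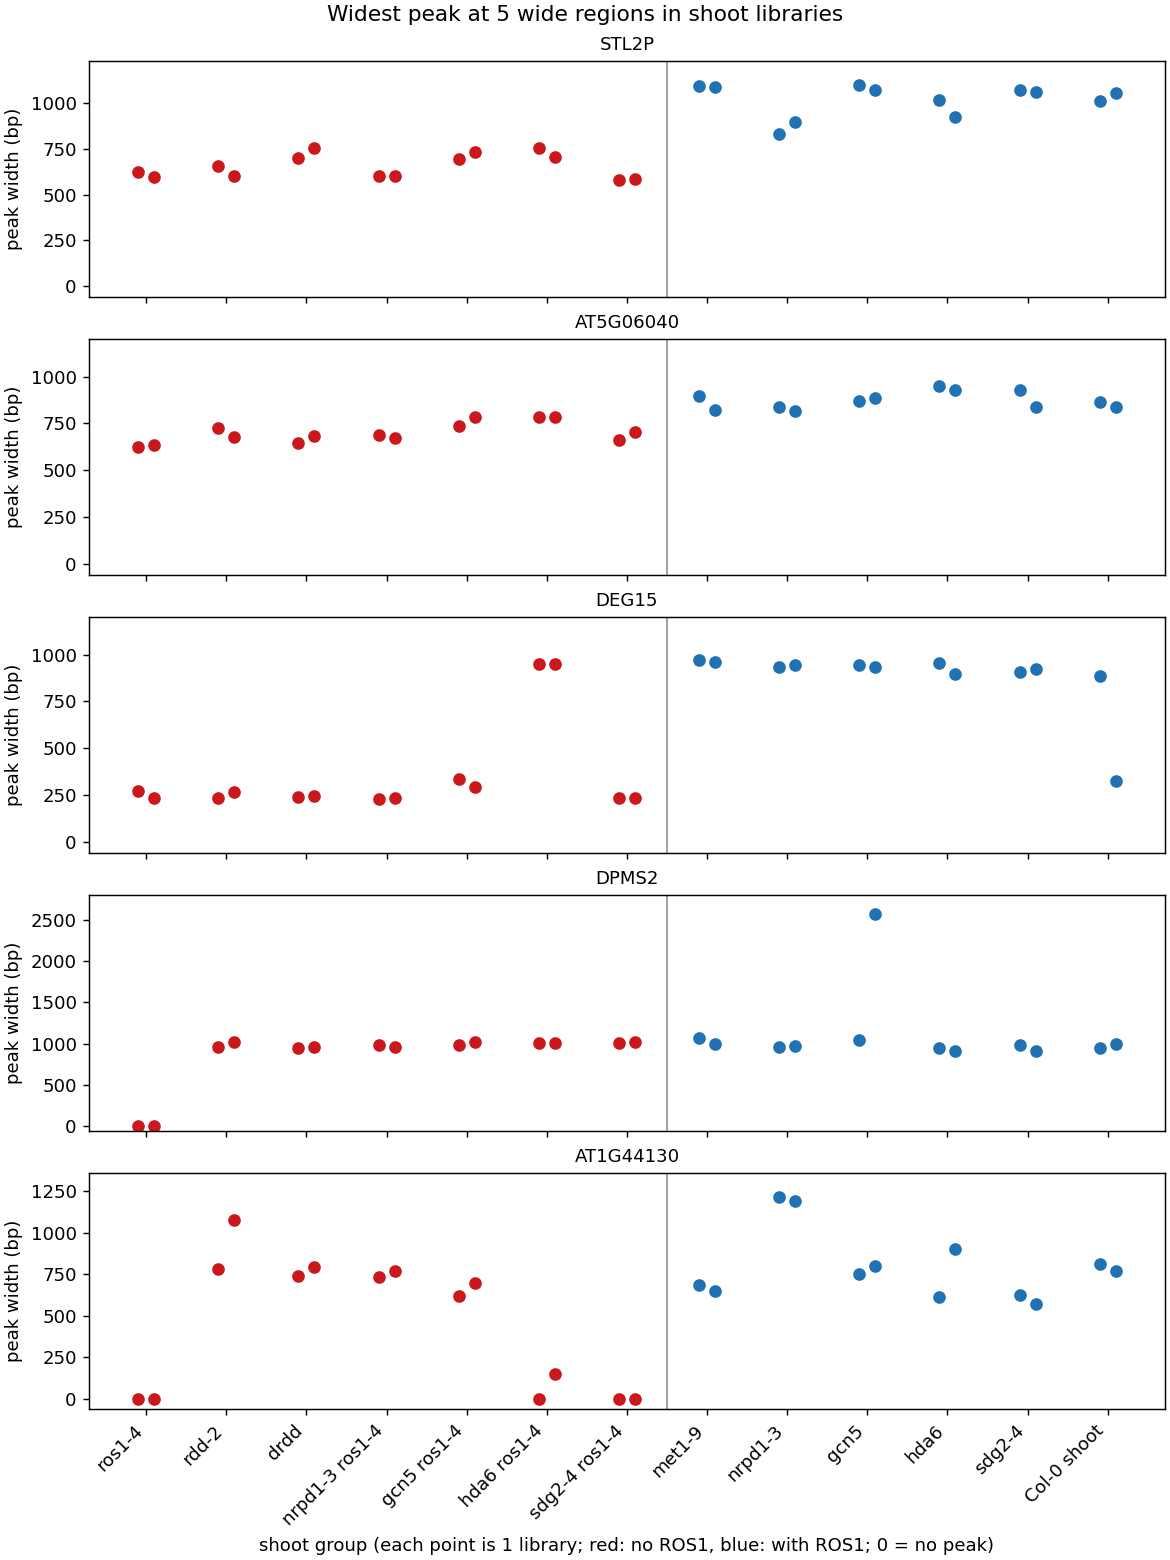
Width in bp of the widest peak at 5 wide regions in shoot libraries; each point is 1 library, red for groups lacking ROS1 and blue for groups carrying it, and 0 means no peak. STL2P and AT5G06040 separate the colours, hda6 ros1-4 stands with the blue points at DEG15, and ros1-4 alone is at 0 at DPMS2.

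The 4 doubles and drdd were also each set against ros1-4 itself. These 5 comparisons share the same 2 ros1-4 libraries, of which replicate 2 had the narrowest wide regions of the series. In nrpd1-3 ros1-4, 31 wide regions were wider and 7 narrower than in ros1-4, where 2.1% and 0.828% of all tested peaks were (limma, Benjamini-Hochberg adjusted p below 0.05). In gcn5 ros1-4 the counts were 30 and 6, where 2.32% and 1.29% of all peaks were called. In hda6 ros1-4 they were 22 and 1, where 1.85% and 0.681% were called. In sdg2-4 ros1-4 they were 18 and 9, where 1.42% and 0.503% were called. In drdd they were 27 and 12, where 1.43% and 1.25% were called.

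These counts depend on single libraries. Without ros1-4 replicate 1 the total calls were 79 for nrpd1-3 ros1-4, 43 for hda6 ros1-4, 49 for sdg2-4 ros1-4 and 70 for drdd. Without ros1-4 replicate 2 they were 22 for nrpd1-3 ros1-4, 22 for gcn5 ros1-4, 15 for hda6 ros1-4 and 25 for drdd. Leaving out replicate 1 or replicate 2 of the other genotype gave 18 or 17 calls for nrpd1-3 ros1-4, 7 or 8 for gcn5 ros1-4, 9 or 9 for hda6 ros1-4, 14 or 9 for sdg2-4 ros1-4 and 18 or 21 for drdd. The share of wider calls moved too: by total length covered, gcn5 ros1-4 had 15 wider and 30 narrower regions, hda6 ros1-4 17 and 9, and nrpd1-3 ros1-4 35 and 16. With quantile normalization gcn5 ros1-4 had 45 and 25, hda6 ros1-4 33 and 6, and nrpd1-3 ros1-4 32 and 15. With no centring they had 134 and 1, 69 and 1, and 41 and 3, while sdg2-4 ros1-4 had 26 and 6 and drdd 59 and 10.

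DPMS2 had the lowest p of the wider regions in all 5 comparisons. DPMS2, a subunit gene of dolichol phosphate mannose synthase (chromosome 1, 27951693 to 27952644), had 980 and 964 bp in nrpd1-3 ros1-4, 988 and 1014 bp in gcn5 ros1-4, 1003 and 1009 bp in hda6 ros1-4, 1005 and 1015 bp in sdg2-4 ros1-4, 952 and 958 bp in drdd and no peak in ros1-4. The log2 differences ran from 3.10 in gcn5 ros1-4 to 3.34 in sdg2-4 ros1-4, each ± 0.21 SE, with limma adjusted p from 2.54e-08 to 8.48e-08. rdd-2 had 963 and 1024 bp and Col-0 shoot 952 and 996 bp, so of the 15 groups only ros1-4 lacked it, and the other groups lacking ROS1 had it.

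VSP2, a vegetative storage protein gene induced by jasmonate (chromosome 5, 8501881 to 8502688), had 854 and 902 bp in nrpd1-3 ros1-4, against 339 and 335 bp in ros1-4 (1.08 ± 0.11, limma adjusted p = 1.32e-05). It was called wider also in the other 4 comparisons, with 883 and 849 bp in gcn5 ros1-4 (0.79 ± 0.11, limma adjusted p = 0.000539), 883 and 996 bp in hda6 ros1-4, 888 and 870 bp in sdg2-4 ros1-4 and 878 and 880 bp in drdd. Of the other groups, met1-9 was also narrow at VSP2, with 405 and 341 bp, and Col-0 shoot had 808 and 781 bp. By total length covered, the VSP2 differences in hda6 ros1-4, sdg2-4 ros1-4 and drdd no longer passed the threshold, with log2 differences of 0.27, 0.28 and 0.28.

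NAP, a NAC factor gene of leaf senescence (chromosome 1, 26123008 to 26123814), was narrower in 3 doubles and in drdd. In drdd it had 415 and 482 bp (−1.04 ± 0.18, limma adjusted p = 0.0025). It had 388 and 446 bp in nrpd1-3 ros1-4, against 887 and 866 bp in ros1-4 (−1.002 ± 0.18, limma adjusted p = 0.00348). Without nrpd1-3 ros1-4 replicate 1 this difference was −0.93 (limma adjusted p = 0.0515). It had 375 and 445 bp in hda6 ros1-4 and 385 and 379 bp in sdg2-4 ros1-4, and by total length covered the sdg2-4 ros1-4 difference was −0.58 (limma adjusted p = 0.241). gcn5 ros1-4 kept 899 and 920 bp and Col-0 shoot had 807 and 815 bp. The single mutants nrpd1-3, with 413 and 444 bp, hda6, with 337 and 616 bp, and sdg2-4, with 362 and 248 bp, also had lower values than Col-0 shoot, which was not tested, while gcn5 had 905 and 919 bp. NAP had no peak in root.

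Other regions were called in 1 or more comparisons or stood out in ros1-4 or drdd. ACR7, an ACT domain repeat gene (chromosome 4, 11967517 to 11968710), had 1394 and 1394 bp in sdg2-4 ros1-4, against 568 and 427 bp in ros1-4 (1.201 ± 0.13, limma adjusted p = 3.71e-05), and 1159 bp or more in every library outside ros1-4. ACR7 was called wider also in nrpd1-3 ros1-4 (1.14, limma adjusted p = 3.42e-05), gcn5 ros1-4 (0.93, limma adjusted p = 0.000397) and hda6 ros1-4 (0.99, limma adjusted p = 0.00024). WRKY27, a WRKY factor gene (chromosome 5, 21412596 to 21413642), had 466 and 557 bp in sdg2-4 ros1-4, against 877 and 842 bp in ros1-4 (−0.78 ± 0.12, limma adjusted p = 0.00125). WRKY27 was as narrow in met1-9, with 504 and 496 bp, and in sdg2-4 replicate 2, with 545 bp. BSK7, a brassinosteroid signalling kinase gene (chromosome 1, 23554570 to 23555653), had 515 and 519 bp in drdd, against 1073 and 1053 bp in ros1-4 (−1.12 ± 0.13, limma adjusted p = 4.08e-05). With peaks of −log10 q of at least 10 only, the BSK7 difference was −1.17 with a limma adjusted p of 0.421. Outside drdd, BSK7 was below 900 bp only in hda6 replicate 2, at 724 bp. AT4G23000 (chromosome 4, 12052939 to 12054058) had 201 and 388 bp in drdd, against 1101 and 1112 bp in ros1-4 (−1.86 ± 0.24, limma adjusted p = 0.000119).

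SCPL34, a serine carboxypeptidase-like gene (chromosome 5, 7809833 to 7810684), had 885 and 929 bp in gcn5 ros1-4 and no peak in ros1-4 (2.97 ± 0.37, limma adjusted p = 0.000102). SCPL34 was called wider also in nrpd1-3 ros1-4 (2.99, limma adjusted p = 7.86e-05) and hda6 ros1-4 (2.23, limma adjusted p = 0.00228). In the doubles against singles it was called narrower (−0.97 ± 0.18, limma adjusted p = 0.00578). SCPL34 lacked a peak in both libraries of ros1-4, drdd and sdg2-4 ros1-4, while Col-0 shoot had 852 and 749 bp. Among list genes, ACT7 was wider in gcn5 ros1-4, with 1598 and 1622 bp, than in ros1-4, with 909 and 499 bp (0.78 ± 0.17, limma adjusted p = 0.0155), and gcn5 had 1612 and 1624 bp. JAZ1 was wider in drdd than in ros1-4 (1.82 ± 0.27, limma adjusted p = 0.000521). WRKY18, an immune regulator gene (chromosome 4, 15381924 to 15383269), had 2084 and 2100 bp in nrpd1-3 ros1-4, against 1319 and 681 bp in ros1-4 (0.98 ± 0.25, limma adjusted p = 0.0474).

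Other regions named by their p lost their call in 1 or more alternatives. AT1G35430 (chromosome 1, 13029444 to 13030267) had no peak in drdd, against 306 and 345 bp in ros1-4 (−2.30 ± 0.18, limma adjusted p = 2.13e-07), and with peaks of −log10 q of at least 10 the adjusted p was 0.481. Col-0 shoot had 824 and 1111 bp there and mutant shoots carrying ROS1 had 766 to 1179 bp, so ros1-4 was narrow itself. The region was called wider than in ros1-4 in nrpd1-3 ros1-4 (1.42), gcn5 ros1-4 (0.96) and hda6 ros1-4 (0.75). HSFA3, a heat shock factor gene (chromosome 5, 973681 to 974662), averaged 730 bp in sdg2-4 ros1-4, against 1046.5 bp in ros1-4 (−0.597 ± 0.11, limma adjusted p = 0.005), and was lost without sdg2-4 ros1-4 replicate 1 (adjusted p = 0.056) or replicate 2 (adjusted p = 0.0507). In nrpd1-3 ros1-4 the regions of ABA4, which acts in neoxanthin synthesis and shares its region with RBCS1A, and of AT2G43140 were narrower than in ros1-4 by −0.60 and −0.58 on the log2 scale. The ABA4 call was lost without either nrpd1-3 ros1-4 library or without ros1-4 replicate 2, and the AT2G43140 call without any 1 of the 4 libraries. In gcn5 ros1-4, AT3G57500 averaged 299.5 bp, against 837 bp in ros1-4 (−1.59 after centring). AT1G30300 averaged 672.5 bp in gcn5 ros1-4, against 736 bp in ros1-4 (−0.47 after centring and −0.11 with no centring). AT1G70200 averaged 953.5 bp in gcn5 ros1-4, against 977 bp in ros1-4 (−0.39 after centring and −0.03 with no centring), so most of these 2 differences came from centring each library on its mean. The AT3G57500 and AT1G70200 calls were lost without any 1 of the 4 libraries, and the AT1G30300 call without either gcn5 ros1-4 library or without ros1-4 replicate 1.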

How the data were processed

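Per the labels' protocols, Tn5 tagmented the chromatin for ATAC-seq and a NovaSeq X Plus instrument read the libraries. FastQC, BWA, SAMtools, GATK and MACS2 and the TAIR10 genome are named in the submitters' processing notes, without versions. The authors deposited 1 peak list per library, which gives each peak's coordinates, a display score, a fold (ratio of summit pileup to local background) and −log10 p-values and q-values, with a smallest −log10 q of 2.0. Read depth per library is not given in the lists, so no counting interval is given. In met1-9 the peak names speak of leaf while the labels say shoot, and stem peaks carry names with words for merged data.

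Computed here, with Python 3.11.15, numpy 2.4.6, pandas 2.3.3, scipy 1.17.1 and matplotlib 3.10.9, was the widest peak of each library that overlapped each of 19079 shared peaks. Gene names and positions came from a RefSeq table of TAIR10.1 with 27444 protein-coding genes, used for names and neighbourhood only. A region was named for the nearest gene within 2000 bp. List membership used 500 bp, and 207 of 211 list names matched. Widths were tested with limma 3.58.1 in R 4.3.3 on log2(width + 100 bp), each library centred on its mean, with peaks present in at least 4 of 28 libraries, 7 contrasts, 14 residual degrees of freedom and a Benjamini-Hochberg threshold of 0.05. The Col-0 shoot libraries chose the regions and stayed out of the fit. The fit was tested on simulated data.

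Regions named were the 10 widest in replicate 2, the 10 with the largest median width over 28 libraries, the 10 with the highest replicate 2 fold, regions absent from a group (up to 5 per organ, 2 per mutant), list genes, and the 3 lowest p per direction and contrast. The regions and lists were chosen with earlier results of these data known, and AT5G06040 was named after its values were seen. Replicate numbers were not taken as pairs. Alternatives covered the pseudocount, centring, filter, q limit, overlap, width measure, replicate block, swapped replicate roles and each left-out library.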

Additional observations from a re-analysis of the deposited data

Results flagged for a closer look

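The ros1-4 effect on width differed between the nrpd1-3, gcn5, hda6 and sdg2-4 backgrounds at 4 named regions, by the limma test of the interaction (Benjamini-Hochberg adjusted). These were among the regions named in the doubles against singles. Of the 1210 wide regions, 20 were called by this test, where 2.59% of all tested peaks were called. At DEG15 the adjusted p was 3.83e-05, with log2 differences of −1.70, −1.08, −0.18 and −1.74 in those backgrounds. At AT1G44130 it was 0.000215, with −0.67, 0.04, −2.63 and −2.94. At AT1G15670 it was 0.00748, with −0.16, 0.03, 1.38 and 1.28. In the gcn5 background the widths at AT1G44130 (620 and 700 bp in gcn5 ros1-4, against 752 and 800 bp in gcn5) and at AT1G15670 (866 and 910 bp, against 1017 and 1093 bp) were lower in the double, and centring each library on its mean turned the sign. At AT1G57980 it was 0.0447, with 0.59, −0.14, 0.65 and 1.26. STL2P had negative differences in all 4 backgrounds and an adjusted p of 0.254.

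The left-out stretches of chromosomes 2 and 3 held 8 wide peaks of Col-0 shoot replicate 1, which entered no comparison.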

How the results depend on the processing

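Of the alternative values for named regions, 511 kept their direction and side of the threshold, 58 fell short of it and 1 reversed: PTF1 in root against stem, −0.16 with −log10 q of at least 10; the cause was not tested. A width minimum of 1000 bp gave 459 regions and one of 600 bp gave 2874, since the minimum sets the number. Calls with a pseudocount of 10 bp were 13 for gcn5 ros1-4 and 12 for hda6 ros1-4 against ros1-4. By covered length they were 396 for root against stem and 35 for doubles against singles. With no centring they were 135 for gcn5 ros1-4, 70 for hda6 ros1-4 and 69 for drdd. With a peak required in all 28 libraries they were 14 for nrpd1-3 ros1-4, 13 for hda6 ros1-4 and 24 for drdd, with fewer regions tested. With −log10 q of at least 10 they were 21 for gcn5 ros1-4. Quantile normalization, chosen after seeing the data, gave 147 for root against stem, 70 for gcn5 ros1-4, 39 for hda6 ros1-4 and 48 for sdg2-4 ros1-4. For regions absent from both libraries of a group, 35 alternative counts moved from the main count and 21 stayed close to it. For the share of regions wide in a group, 9 moved and 75 stayed close, judged by the SD between the libraries of the group. The 75 include every share with 1 library of the group left out. By this rule such a share could only count as close, so these say nothing about stability. The cause of these moves was not tested.

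Leaving out single libraries gave 178 to 246 calls for root against stem, 15 to 46 for doubles against singles, 17 to 79 for nrpd1-3 ros1-4, 7 to 41 for gcn5 ros1-4, 9 to 43 for hda6 ros1-4, 9 to 49 for sdg2-4 ros1-4 and 18 to 70 for drdd. For the median percent of regions wide, single libraries were not left out. Instead all libraries of either replicate number outside Col-0 shoot were left out together, which gave 72.6 and 75.5. With a replicate block the counts were 243, 19, 34, 31, 23, 24 and 37 in the same order. Over 91 pairs of same-numbered libraries, deviations correlated between −0.15 and 0.19, so the numbers were not taken as pairs.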
